A study of Mus musculus with 13 samples.

Results

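Transcripts of 4 chemokine receptor genes, Cx3cr1, Ccr2, Ccrl2 and Cxcr4, were followed in sorted mouse microglia. The 4 were taken by symbol from the 14518 gene entries of the deposited table, and each symbol had 1 entry. RSD libraries (n = 7) came from C57BL/6 mice of 2 months that went through 6 cycles of repeated social defeat, a stress model in which mice are repeatedly attacked by an aggressor. CON libraries (n = 6) came from control mice of the same strain and age. In both groups microglia were sorted by their surface proteins, as CD11b+ cells with intermediate CD45. For RSD libraries this was 24 days after the last defeat cycle. The labels used here give neither sex nor the number of animals behind a library, and p-values therefore cover differences among libraries, which may be technical. The samples are named below by group and sample number, 2, 7, 8, 10, 11, 12 and 13 for RSD and 1, 4, 5, 17, 18 and 19 for CON.

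Chemokine receptors are G protein-coupled receptors of the cell surface that steer cell movement along gradients of small secreted proteins. Cx3cr1 is the receptor for fractalkine (Cx3cl1), a ligand made by neurons, and is a standing mark of microglia in the healthy brain. Ccr2 is the receptor for Ccl2 and marks blood monocytes that are recruited to inflamed tissue. Cxcr4 is the receptor for Cxcl12 and retains blood-forming cells in the bone marrow. Ccrl2 is an atypical receptor that binds chemerin (Rarres2) and presents it to neighbouring cells without the usual G protein signal.

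Recovered depth was 9.76 to 12.3 M reads in RSD libraries and 9.89 to 12.2 M reads in CON libraries. CON 18 and RSD 8 stood apart from the rest. The median Spearman correlation with the other libraries was 0.948 for CON 18 and 0.975 for RSD 8, against 0.988 to 0.992 for the other 11. All 10 microglial markers, among them P2ry12, Tmem119 and Sall1, were present in every library, and their summed level was 263356 to 279717 normalized reads in RSD libraries and 168997 to 282270 in CON libraries, with the lowest value in CON 18. CON 18 also held a summed level of 33133 normalized reads over 8 of 10 border macrophage markers, against 7355 to 8374 in the other CON libraries. Of that list, Stab1 gave most of the sum in the other CON libraries, at 7119 to 8148 normalized reads. Results of the 4 receptors are therefore given with and without CON 18.

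The 300-base promoter windows of the 4 genes are shown because 2 of the genes, Ccrl2 and Cxcr4, varied widely between libraries while Cx3cr1 and Ccr2 were steadier. The sequences are from RefSeq on GRCm38.p6 and run 5′ to 3′ on the strand of the gene, with the transcription start 50 bases from their 3′ end. The windows are chr9:120068247-120068546 for Cx3cr1 (minus strand), chr9:124101933-124102232 for Ccr2 (plus strand), chr9:111057469-111057768 for Ccrl2 (minus strand) and chr1:128592250-128592549 for Cxcr4 (minus strand). Of 3 windows held for Ccrl2, the one at the annotated 5′ end of the gene was used. Capitals mark matches to the motifs searched on both strands, which were the PU.1 core GAGGAA, the AP-1 site TGANTCA, the TATA box TATAAA, the GC box GGGCGG and the kappa-B consensus.
Cx3cr1: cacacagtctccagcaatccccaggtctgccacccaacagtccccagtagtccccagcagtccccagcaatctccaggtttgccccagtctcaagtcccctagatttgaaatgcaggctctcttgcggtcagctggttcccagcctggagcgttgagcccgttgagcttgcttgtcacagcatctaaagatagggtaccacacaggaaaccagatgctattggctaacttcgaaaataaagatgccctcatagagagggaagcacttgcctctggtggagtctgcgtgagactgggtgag
Ccr2: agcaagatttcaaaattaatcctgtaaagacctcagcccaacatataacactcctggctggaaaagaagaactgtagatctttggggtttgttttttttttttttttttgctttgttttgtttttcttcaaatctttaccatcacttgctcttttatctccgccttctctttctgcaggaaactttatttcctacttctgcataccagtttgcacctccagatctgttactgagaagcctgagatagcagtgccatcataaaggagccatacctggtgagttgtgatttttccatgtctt
Ccrl2: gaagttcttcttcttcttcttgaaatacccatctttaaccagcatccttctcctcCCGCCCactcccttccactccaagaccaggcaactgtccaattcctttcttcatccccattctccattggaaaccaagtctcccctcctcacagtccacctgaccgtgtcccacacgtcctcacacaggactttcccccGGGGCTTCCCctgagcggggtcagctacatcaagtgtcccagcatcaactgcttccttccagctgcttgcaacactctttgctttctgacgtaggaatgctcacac
Cxcr4: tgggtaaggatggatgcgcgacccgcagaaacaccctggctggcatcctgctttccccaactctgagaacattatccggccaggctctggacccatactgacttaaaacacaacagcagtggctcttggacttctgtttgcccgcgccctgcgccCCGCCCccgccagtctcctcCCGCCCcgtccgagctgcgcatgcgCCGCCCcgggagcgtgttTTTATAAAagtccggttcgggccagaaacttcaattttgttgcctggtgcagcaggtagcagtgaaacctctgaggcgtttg

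Counted back from the transcription start, whose preceding base is -1, the Ccrl2 window held a GC box at position -195 and a kappa-B match at -56 that reads on both strands. The Cxcr4 window held GC boxes at -95, -75 and -50 and a TATA box at -30, which overlaps a match on the other strand at -32. No searched motif was found in the Cx3cr1 and Ccr2 windows. Among 32851 promoter windows of the same length, 8.46% held a kappa-B match, 35.7% a GC box, 13.6% a TATA box, 28.3% the PU.1 core and 7.81% an AP-1 site. The matches are letters in these windows and were not tested as binding sites.

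In the GENCODE M21 annotation of GRCm38, 3 of the 4 genes lie on chromosome 9. Cx3cr1 spans chr9:119901616-120069879 on the minus strand with 4505 exon bases, and shares 78 exon bases with Gm33858, an antisense gene. Its reads over those bases cannot be told apart from antisense reads where strand was not used in counting. Ccr2 spans chr9:124101950-124113557 on the plus strand with 6760 exon bases, and 1.91% of its 50-base exon windows also occur in another gene. Ccrl2 spans chr9:111054486-111057519 on the minus strand with 2598 exon bases. Cxcr4 spans chr1:128588199-128592293 on the minus strand with 1808 exon bases. No 50-base window of Ccrl2 or Cxcr4 occurred in another gene.

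Per kb of exon, Cx3cr1 was far above the other 3 receptors. Its median over the 13 libraries was 10268 normalized reads per kb, and its range of 7383 to 11272 did not overlap that of Cmklr1, the signalling chemerin receptor, at 347 to 590. Ccrl2 had a median level of 89.6 normalized reads per kb and came after Cmklr1, with a median of 502, and Cxcr6, with a median of 112 and a range that overlapped that of Ccrl2. Ccr2 had a median level of 48.7 normalized reads per kb, and its neighbours in this order, Ccr1 at 57.3 and Ccr1l1 at 43.5, overlapped it in range. Cxcr4 had a median level of 4.67 normalized reads per kb, and Xcr1 above it and Cxcr3 below it overlapped it too.

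**Figure D1:**
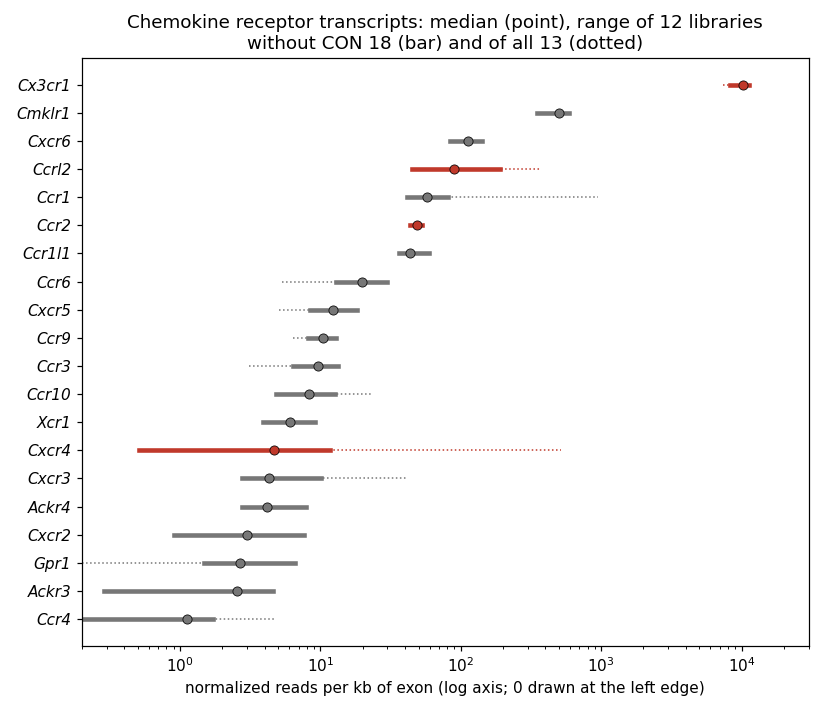
Normalized reads per kb of exon on a log axis for the 4 receptors (red) and further chemokine receptors (grey); points are medians over 13 libraries, bars the range without CON 18 and dotted lines the range with it. Cx3cr1 stands at 10268 and Cxcr4 at 4.67, with Cxcr4 reaching 517 in CON 18.

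Cx3cr1 was among the most abundant transcripts of these cells and did not separate RSD from CON. It took 0.320 to 0.435% of all reads in RSD libraries and 0.298 to 0.461% in CON libraries, and ranked 9 of 14518 entries by mean level. In RSD libraries the lowest, median and highest values were 37468, 46257 and 49329.5 normalized reads, against 33260, 45610 and 50782 in CON libraries. RSD 8 and CON 18 were the low ends of their groups, and all 7 RSD libraries fell within the CON range. The means were 45335 ± 4122 in RSD and 44489 ± 5917 in CON (SD, n = 7 and 6). The log2 difference was 0.03 ± 0.10 (SE), with a 95% interval of -0.17 to 0.24 and a limma adjusted p of 0.932. Without CON 18 the log2 difference was -0.05 with an adjusted p of 0.820, so its sign rested on that library.

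Counting error was small for this gene, 0.478% per library, against a coefficient of variation (SD over mean) of 10.7% over the 13 libraries and 7.53% without CON 18. The level in CON 18 was 71.8% of the median of the other CON libraries. Other microglial markers in CON 18 ranged from 25.3% of that median for Slc2a5, a fructose transporter, to 113% for Fcrls, an Fc receptor-like protein. In RSD 8, Cx3cr1 was at 79.4% of the median of the other RSD libraries. In these bulk samples, fewer cells of a type and less RNA per cell cannot be told apart.

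Sample numbers fall into a run from 10 to 19 and a run from 1 to 8, each holding both groups, and the labels do not say what a number stands for. Among numbers 10 to 19, Cx3cr1 averaged 47956 ± 1269 normalized reads in 4 RSD libraries and 41644 ± 7336 in 3 CON libraries. Among numbers 1 to 8, it averaged 41842 ± 4065 in 3 RSD libraries and 47334 ± 3072 in 3 CON libraries. The RSD minus CON log2 difference was 0.22 ± 0.12 within 10 to 19 and -0.18 ± 0.11 within 1 to 8, with limma adjusted p of 0.726 and 0.334. Within 10 to 19 without CON 18 it was 0.07 ± 0.04, with an adjusted p of 0.582. The difference between the 2 runs in that effect was 0.40 ± 0.17, with an adjusted p of 0.201, and 0.25 ± 0.12 without CON 18, with an adjusted p of 0.214. Neither passed the threshold.

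**Figure D2:**
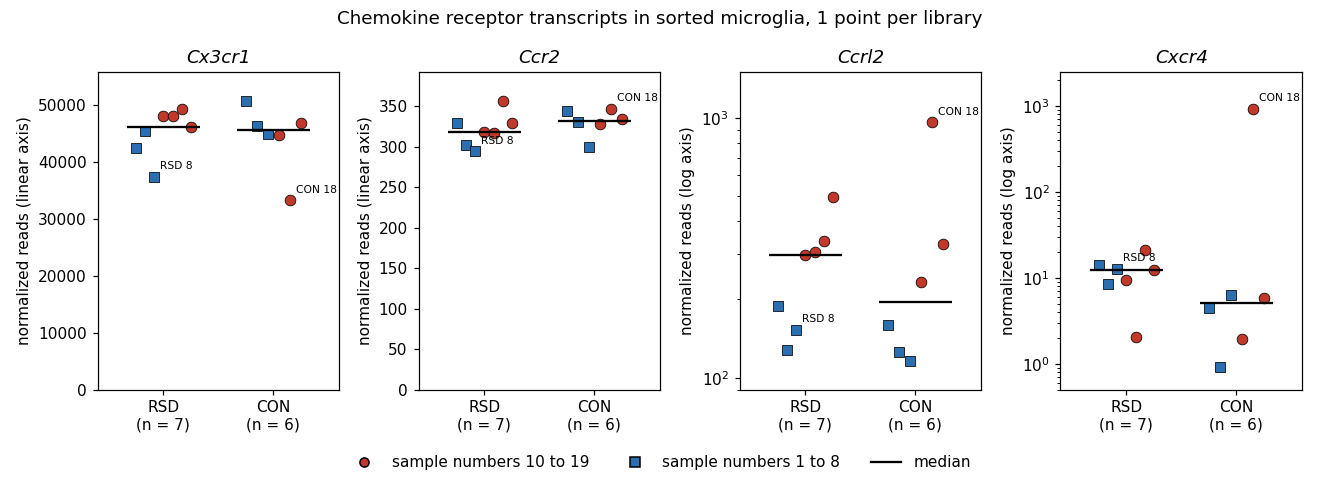
Normalized reads of each receptor by library, RSD left and CON right, on linear axes from 0 for Cx3cr1 and Ccr2 and log axes for Ccrl2 and Cxcr4; bars are medians, circles are sample numbers 10 to 19 and squares 1 to 8. Ccrl2 separates by sample number, 233 to 961 in 10 to 19 and 116 to 189 in 1 to 8, and Cxcr4 reaches 934 in CON 18.

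Ccr2 was the steadiest of the 4 receptors. Its lowest, median and highest values were 295, 318 and 357 normalized reads in RSD libraries, against 300, 332 and 347 in CON libraries. The groups overlapped, with 5 of 7 RSD libraries inside the CON range, 1 above and 1 below it. The means were 321 ± 20.5 in RSD and 331 ± 16.9 in CON (SD, n = 7 and 6). The log2 difference was -0.04 ± 0.07, with a 95% interval of -0.20 to 0.11 and a limma adjusted p of 0.881, so a change of more than 1.08-fold upward or below 0.873-fold lay outside the interval. Without CON 18 it was -0.03 ± 0.07, with an adjusted p of 0.901.

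The variance of Ccr2 over the 13 libraries was 1.07 times what counting alone gives at 277 to 386 reads a library. Its coefficient of variation was 5.77%, and the median was 14.1% among the 4240 genes within 2-fold of its mean. Only 0.708% of those genes had a smaller one. CON 18, which stood apart for other receptors, held 347 normalized reads of Ccr2, or 105% of the median of the other CON libraries. Over 10 of 12 monocyte markers, the summed level was 142 to 222 normalized reads in RSD libraries, against 122 to 208 in CON libraries without CON 18 and 1010 in CON 18. Of that list, Itgal, an integrin subunit of white blood cells, gave 771 of the 1010 in CON 18. Vcan gave 93.5 there, against 33.3 to 44.7 in RSD libraries and 32.4 to 42.5 in the other CON libraries. Treml4, at 9.02, was also above all other libraries, while Plac8 gave 3.38 and Chil3 gave 1.13. Chil3, Hp, S100a4 and Treml4 were among the markers at 0 in some library.

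The ratio of Cx3cr1 to Ccr2 per kb of exon was 191 to 228 in RSD libraries and 205 to 225 in CON libraries without CON 18, where it was 144. CON 18 had the lowest Cx3cr1 of the 13 libraries, while its Ccr2 lay within the range of the others.

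Ccrl2 varied widely between libraries but did not separate RSD from CON. Its lowest, median and highest values were 128, 296 and 497 normalized reads in RSD libraries, against 116, 196 and 961 in CON libraries. All 7 RSD libraries lay inside the CON range, and the highest value was that of CON 18. The means were 272 ± 128 in RSD and 321 ± 324 in CON (SD, n = 7 and 6). The log2 difference was 0.06 ± 0.48, with a 95% interval of -0.99 to 1.11 and a limma adjusted p of 0.977. Without CON 18 the CON mean was 192 ± 87.9 and the log2 difference 0.47 ± 0.36, with an adjusted p of 0.745. With all libraries the interval ran from 0.505-fold to 2.17-fold, so a difference of 2-fold upward lay inside it.

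The spread of Ccrl2 followed the sample numbers. Libraries numbered 10 to 19 held 233 to 961 normalized reads, against 116 to 189 in libraries numbered 1 to 8, and the 2 ranges did not overlap. Both groups took part, with 296 to 497 in RSD 10 to 13, 233 to 961 in CON 17 to 19, 128 to 189 in RSD 2, 7 and 8, and 116 to 160 in CON 1, 4 and 5. The log2 difference, numbers 10 to 19 minus 1 to 8, was 1.39 ± 0.28 with a limma adjusted p of 0.0402, or 2.63-fold. In that comparison 0.688% of 12496 genes were called in either direction, 0.528% higher, and 0.264% higher by at least 2-fold. Without CON 18 the difference was 1.12 ± 0.15 with an adjusted p of 7.18e-04, or 2.17-fold, in a comparison that called 1.37% of 12583 genes, 0.858% higher and 0.27% higher by at least 2-fold. Ranges that did not overlap, with 10 to 19 higher, were found for 0.624% of genes. The split by number was taken up with earlier results of these data known, so these p-values describe the libraries and are not independent evidence.

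Neither of the steadier receptors passed the test between the sample number runs. The log2 difference, 10 to 19 minus 1 to 8, was 0.01 ± 0.10 for Cx3cr1 and 0.08 ± 0.07 for Ccr2, with limma adjusted p of 0.972 and 0.679. Within the numbers, the RSD minus CON log2 difference of Ccrl2 was -0.26 ± 0.49 in 10 to 19, 0.34 ± 0.27 there without CON 18, and 0.22 ± 0.19 in 1 to 8, with adjusted p of 0.876, 0.756 and 0.469. With the number run as a term and without CON 18 it was 0.28 ± 0.15, with an adjusted p of 0.530.

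Some immediate early genes, which are transcribed within minutes of many stimuli, were also higher in libraries 10 to 19. The summed level of 10 such genes, to which Jun, Egr1 and Fos gave the most, was 138234 to 181267 normalized reads in libraries 10 to 19 and 94908 to 128641 in libraries 1 to 8. Of these 10, 4 were called higher in 10 to 19 (Fos, Jun, Atf3 and Dusp1), beside 0.528% of all genes tested, and 7 without CON 18, beside 0.858%. The list and the split by number were chosen with earlier results of these data known, so these counts are not independent evidence. Fosb, Junb, Egr1, Egr2, Ier2 and Zfp36 did not pass with all libraries, and their ranges overlapped between the runs. CON 18 had the highest Ccrl2 and the lowest immediate early sum of the libraries 10 to 19. The part of these genes in the Ccrl2 result was not tested.

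Over the 13 libraries, the 3 genes of 12325 searched whose log2 levels were most like those of Ccrl2 were Pmaip1, a pro-death BCL2-family protein, Gla, a lysosomal galactosidase, and Id2, an inhibitor of helix-loop-helix transcription factors. Pearson's r and Spearman's rho were 0.97 and 0.96 for Pmaip1, 0.97 and 0.97 for Gla, and 0.96 and 0.93 for Id2. Without CON 18 and RSD 8, r was 0.98, 0.96 and 0.95 over 11 libraries. These are the top of a search, and the libraries share their sample number runs, across which each of the 3 also differed, with limma adjusted p of 0.0225 for Pmaip1, 0.0402 for Gla and 0.00311 for Id2.

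**Figure D3:**
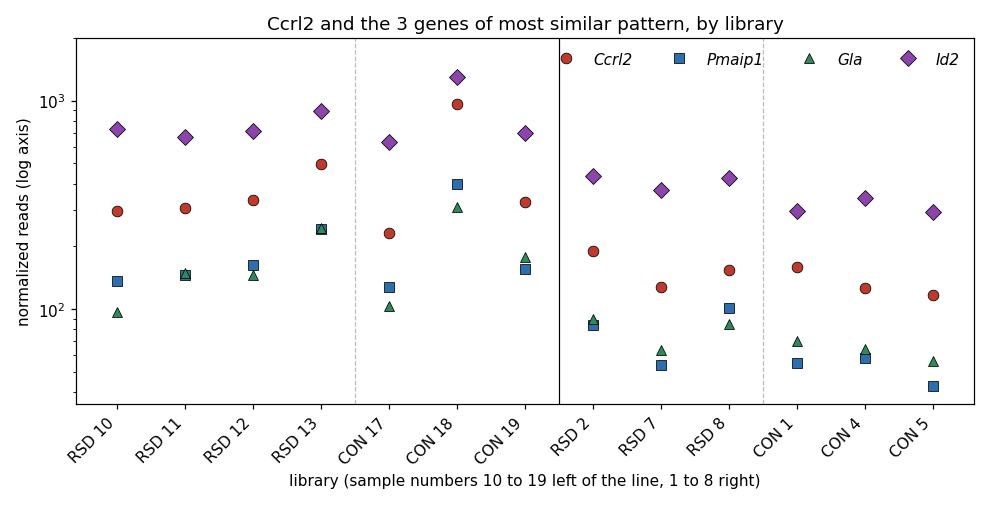
Normalized reads on a log axis of Ccrl2, Pmaip1, Gla and Id2 in each library, with sample numbers 10 to 19 left of the solid line and 1 to 8 right of it. All 4 genes are higher on the left in both groups, and Ccrl2 is highest in CON 18 at 961.

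Cxcr4 was low in 12 libraries and high in CON 18. RSD libraries held 2.04 to 21.3 normalized reads with a median of 12.2, against 0.928 to 934 with a median of 5.15 in CON libraries. These are 2 to 23 counted reads per RSD library, against 1 to 6 in the CON libraries other than CON 18. CON 18 was 43.9 times the next highest library and 208 times the median of the other CON libraries. With 10 or more reads in 5 of 13 libraries, Cxcr4 did not pass the filter on low values, and its fits were made with every entry kept. The log2 difference over all libraries was 0.03 ± 1.20, with a 95% interval of -2.58 to 2.64 and a limma adjusted p of 0.996.

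Leaving out CON 18, Cxcr4 averaged 11.4 ± 5.88 normalized reads in RSD and 3.91 ± 2.40 in CON (SD, n = 7 and 5). Summed over libraries, that is 77 reads in 7 RSD libraries and 20 reads in 5 CON libraries. RSD 11, at 2.04, was within the CON range, and the other 6 RSD libraries were above all 5 CON libraries. The log2 difference without CON 18 was 1.32 ± 0.47, with an unadjusted p of 0.0115 and a limma adjusted p of 0.772, so it did not pass the threshold. In the comparison without CON 18, 4.92% of genes passing the filter had an unadjusted p under 0.05. Within sample numbers 1 to 8 the log2 difference was 1.54 ± 0.57, and within 10 to 19 without CON 18 it was 1.14 ± 0.66, with adjusted p of 0.218 and 0.634. At these read numbers the value in any 1 library is uncertain by counting alone.

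Other transcripts moved with Cxcr4 in CON 18. Ccr1, a receptor for Ccl3 and Ccl5 named after its values were seen, held 2705 normalized reads there, against 117 to 230 in RSD libraries and 136 to 204 in the other CON libraries. The border macrophage marker Mrc1, a mannose receptor, held 12409, against 165 to 287 in the other CON libraries. Over 8 of 10 border macrophage markers the sum was 4899 to 8565 in RSD libraries and 33133 in CON 18. Outside CON 18, Stab1 gave most of the sum, at 4602 to 8191 in RSD libraries and 7119 to 8148 in the other CON libraries. Stab1 held 18400 in CON 18. Ms4a7, at 1839, and Pf4, Cd163, F13a1 and Cbr2 were also higher in CON 18 than in any other library. Clec10a, at 3.38 there, was within the range of the others. Pf4, Cbr2 and Clec10a were at 0 in some other library, and none of the 8 was at 0 in CON 18. Over 4 of 10 T and NK cell markers the sum was 12.2 to 15.7 in RSD libraries, against 8.99 to 20.2 in CON libraries without CON 18 and 94.7 in CON 18. Of that 94.7, Ms4a4b gave 68.7 and Cd3d 15.8, while Lck at 5.63 and Cd8a at 4.51 were within the range of the other libraries. The part of these cell types in the Cxcr4 value of CON 18 was not tested.

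The genes most like Cxcr4 over the 13 libraries were Gas2l3, a cytoskeleton linker, C3ar1, the receptor for complement C3a, and Lrp6, a Wnt co-receptor, with r of 0.96, 0.95 and 0.94 and rho of 0.84, 0.77 and 0.83. Each was also highest in CON 18, at 298, 7810 and 4768 normalized reads. Without CON 18 and RSD 8, r was 0.80, 0.71 and 0.82 over 11 libraries. For Cx3cr1 the most similar were Phyhd1 (r 0.98, rho 0.92), Fcgrt, the neonatal Fc receptor (r 0.98, rho 0.87), and 4632428N05Rik (r 0.97, rho 0.91), with r of 0.88, 0.84 and 0.86 without both libraries. For Ccr2 they were Lsm10 (r 0.90, rho 0.89), Snx22 (r 0.88, rho 0.84) and Xbp1, a transcription factor of the unfolded protein response (r 0.87, rho 0.92), with r of 0.86, 0.82 and 0.86 without both libraries. The spread of Ccr2 was itself near counting error.

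**Figure D4:**
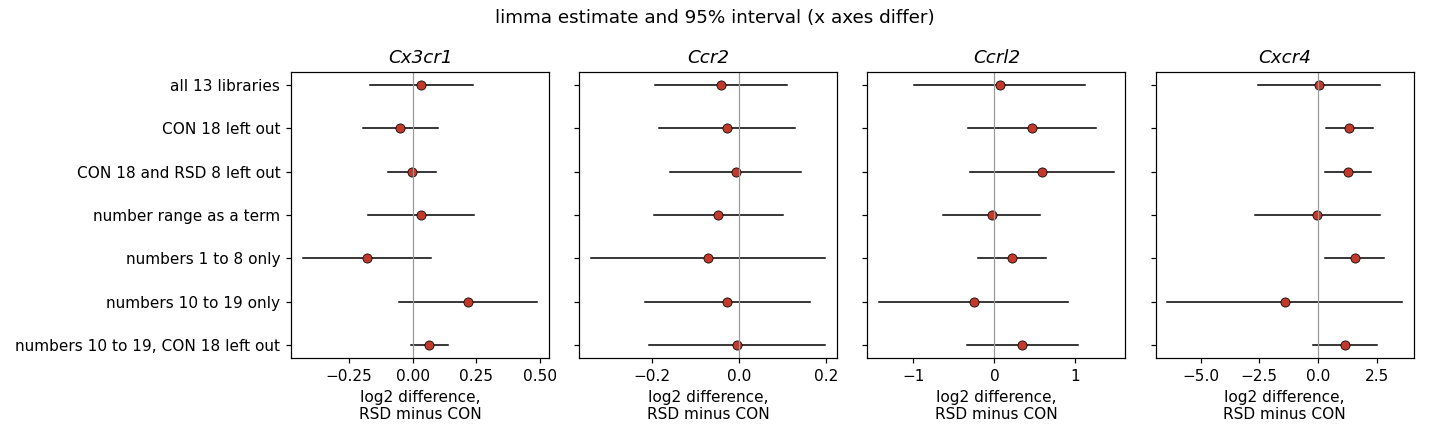
RSD minus CON log2 difference with its 95% interval from limma for each receptor, with all 13 libraries and with libraries or sample numbers left out; the x axes differ. Cx3cr1 lies between -0.18 and 0.22, and Cxcr4 is 0.03 with all libraries and 1.32 without CON 18.

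None of the 3 tested receptors was called different between RSD and CON, in a comparison that called 0% of 12496 genes by limma at an adjusted p under 0.05. At an unadjusted p under 0.05 it held 500 genes, or 4%, and 3.92% with every entry kept. The groups did not overlap for 0.064% of genes, and overlapped for each of the 4 receptors. edgeR called 0 genes, or 0%, with 4.81% at an unadjusted p under 0.05. DESeq2 called 2 of 12320, or 0.0162%, with 4.68% at an unadjusted p under 0.05.

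The other genes of the pathway gave no call either. Of 22 other chemokine receptors, 17 had an entry and 12 were tested; 6 had a positive and 6 a negative log2 difference, with a median of 0.02, against 0.01 over all genes tested. The 3 of smallest p were Ackr4, a scavenger of Ccl19 and Ccl21, at -0.48 ± 0.22, Cxcr5, the Cxcl13 receptor, at 0.41 ± 0.24, and Ccr1l1 at -0.21 ± 0.14. Each had a limma adjusted p of 0.821.

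Of 16 ligands and sheddases, 14 had an entry and 9 were tested, 5 positive and 4 negative, with a median log2 difference of 0.07. Adam10 and Adam17, proteases that release fractalkine from the cell surface, had log2 differences of 0.14 ± 0.09 and 0.07 ± 0.07, and the cytokine Mif, which also binds Cxcr4, had -0.30 ± 0.23. Cx3cl1, the ligand of Cx3cr1, and Cxcl12, the chemokine ligand of Cxcr4, were near 0 in these cells. Cx3cl1 averaged 2.71 ± 2.10 normalized reads in RSD libraries and 5.12 ± 4.32 in CON libraries. Cxcl12 averaged 5.20 ± 2.16 in RSD libraries and 5.13 ± 2.62 in CON libraries. Neither of these 2 genes passed the filter on low values.

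Of 43 receptor signalling genes, 41 had an entry and 40 were tested, 17 positive and 23 negative, with a median log2 difference of -0.03. The 3 of smallest p were Mapk3, the kinase ERK1, at -0.18 ± 0.07, Gnai3, an inhibitory G protein subunit, at 0.18 ± 0.09, and Itch, a ubiquitin ligase known to act on human CXCR4, at 0.13 ± 0.07, each with a limma adjusted p of 0.821. By sample number, 1 of 9 ligands and sheddases and 1 of 40 signalling genes were called higher in 10 to 19, beside 0.528% of all genes tested, and both are named after their values were seen. Ccl4, a chemokine, held 368 to 726 normalized reads in 10 to 19 and 218 to 295 in 1 to 8, with a log2 difference of 1.17 ± 0.14 and an adjusted p of 7.3e-04. Rgs1, a brake on G protein signalling, held 4351 to 8620 normalized reads in 10 to 19 and 1943 to 4000 in 1 to 8, with a log2 difference of 1.06 ± 0.21 and an adjusted p of 0.0402.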

How the data were processed

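Per the labels' protocols, cells were Percoll-enriched and sorted on CD11b and CD45, and the Ovation SoLo kit with depletion of ribosomal RNA gave the libraries. Per the submitters' processing notes, STAR, mm10 and DESeq2 were used; versions, read counter and strand use are not stated there. The deposited table holds a normalized signal, whole reads divided by a size factor per library, called normalized reads here; 100% of values were whole multiples of 1 read's worth within 0.01 reads, so reads were recovered. The labels do not name separate animals, and intervals cover the spread between libraries.

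The main test was limma 3.58.1 (R 4.3.3) on log2(value + 1), with trend and robust variance, RSD minus CON, two-sided, Benjamini-Hochberg adjusted over 12496 genes kept by filterByExpr (minimum count 10, total 15), threshold 0.05. Fold changes on that scale understate those of low genes. edgeR 4.0.16 and DESeq2 1.42.0 were run on recovered reads as alternatives, beside other pseudocounts, filters, scalings, sample weights and left-out libraries. The fit was tested on 5 simulated data sets. It recovered 52.4% of 1.5-fold, 81.6% of 2-fold, 94.4% of 3-fold and 96.4% of 4-fold changes. Of its calls, 5.69% were false. Levels per kb divide by GENCODE M21 exon length.

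The members, the gene lists and the split by sample number were chosen with earlier results of these data known. The naming rule took the 4 receptors and the 3 list members of smallest p per list. It also took the 3 genes per receptor with the highest Pearson correlation among genes of at least 1 CPM. Other genes are named outside that rule, such as Ccr1, Ccl4, Rgs1, single markers, immediate early genes and receptors compared per kb. Some of them were named after their values were seen. No 2 libraries agreed within counting noise (lowest chi-square per degree of freedom 4.21). Some genes of the lists are not reported here.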

Additional observations from a re-analysis of the deposited data

Results flagged for a closer look

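Of 56 sets of values tested (28 genes in 2 groups), 15 had a library farther from the rest than Dixon's 95% limit allows. Chance gives about 1 in 20 for unrelated genes chosen beforehand. Many of these genes were picked for following a receptor over the same libraries, and Ccr1 was named after its values were seen. The count therefore cannot be set against that rate. Among the receptors, CON 18 stood apart, low in Cx3cr1 at 33260 normalized reads and high in Ccrl2 at 961 and in Cxcr4 at 934. CON 18 was also low in the genes most like Cx3cr1, with Phyhd1 at 1605, Fcgrt at 213 and 4632428N05Rik at 12882 normalized reads. It was high in Pmaip1 at 398, Gas2l3 at 298, C3ar1 at 7810, Lrp6 at 4768 and Ccr1 at 2705 normalized reads.

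RSD 8 stood apart from the other RSD libraries, high in Adam10 at 7892 and Lrp6 at 2589 and low in Fcgrt at 265 normalized reads. RSD 12 was high in Xbp1 at 1741 normalized reads. The genes most like a receptor were picked for sharing its pattern, and their outlying libraries are not independent of its own.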

How the results depend on the processing

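No alternative called any of the 4 receptors, and Ccr2 kept its sign under all 28, at -0.07 to -0.00. No paired analysis was possible because the groups share no replicate number. Cx3cr1 (main value 0.03) turned to -0.00289 without both CON 18 and RSD 8, -0.18 within numbers 1 to 8 and -0.065 with the number run as a term and CON 18 out; leaving out 1 library gave -0.048 to 0.079. Ccrl2 (0.06) turned to -0.24 by edgeR and -0.24 by DESeq2, -0.035 with the number run as a term and -0.26 within 10 to 19. Leaving out 1 library gave -0.14 to 0.47 for Ccrl2. Its highest value was 0.79 with sample weights (limma adjusted p 0.561), and it was 0.58 without both CON 18 and RSD 8. Cxcr4 (0.03) turned to -0.29 with a pseudocount of 5, -3.76 by edgeR (adjusted p 0.800), -3.80 by DESeq2 (no p given), -0.044 with the number run as a term and -1.43 within 10 to 19; leaving out 1 library gave -0.46 to 1.32. Those Cxcr4 settings all include CON 18, apart from the 1.32 without it. Genes called numbered 2 by DESeq2 and 11 within 10 to 19 without CON 18, against 0 in the main comparison; the cause was not tested. The alternatives that add the number run without CON 18 and keep every entry for Cxcr4 were chosen after seeing the data. Depth limits Cxcr4, at 1 to 23 reads outside CON 18.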
